A study of Mus musculus with 35 samples.

Results

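Acetylation of histone H3 at lysine 27 (H3K27ac) was compared between fibroblasts and cells on day 3 of reprogramming, as the regions of the genome where one group had peaks and the other had none. The 5 peak lists concerned, 2 of fibroblasts and 3 of day 3, were taken out of the 22 peak lists of the series, 12 of them for H3K27ac. Peaks on chromosomes 1 to 19 and X were merged into 120290 regions wherever they shared at least 1 bp, against 179334 regions over all 12 H3K27ac lists. A region was called MEF-specific when both fibroblast lists and no day 3 list had a peak in it, day 3-specific when all 3 day 3 lists and no fibroblast list did, and common when all 5 did. These rules gave 36795 MEF-specific regions (30.6% of all), 4483 day 3-specific regions (3.73%) and 15556 common regions (12.9%). With each list shortened to its 41471 best peaks, the length of the shortest, there were 14398 MEF-specific and 5403 day 3-specific regions. Without one or the other fibroblast library there were 58713 or 58407 MEF-specific regions, and without replicate 2 of day 3 in batch DG-3458 there were 6867 day 3-specific ones. The rules used the peak calls themselves, so the class sizes are a description and have no test.

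The fibroblasts were mouse embryonic fibroblasts (MEF) of strain C57BL/6 x 129 with genotype OKSM Col1a1/M2rtTA ROSA26. They carried a polycistronic cassette for Pou5f1, Klf4, Sox2 and Myc (OKSM) at Col1a1 and the doxycycline-dependent activator M2rtTA at ROSA26, and both groups carried both alleles. The MEF libraries came from unsorted cells in MEF medium without doxycycline. The day 3 libraries came from unsorted cells in ESC medium to which doxycycline (1 µg/ml) and ascorbic acid (50 µg/ml) had been added. Induction of the factors, the change of medium, ascorbic acid and time in culture therefore changed together and cannot be told apart. Later libraries, used here only for what they had at these regions, came from day 6 and day 9 cells of the same genotype and medium that were sorted for the label SSEA+, and from the embryonic stem cell (ESC) line V6.5 in ESC medium or, for KLF4, also in ESC medium with 2i (1 µM MEK inhibitor and 3 µM GSK3 inhibitor). Strain and genotype labels of some other libraries of the series rise in number from library to library, which was taken as a spreadsheet fill. Day 3 cells were a bulk population, so fewer cells with the mark and less of the mark per cell cannot be told apart.

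H3K27ac is laid down by the acetyltransferases EP300 and CREBBP and lies at active promoters and active enhancers. Promoters near the start of widely used genes tend to carry it in many cell types, whereas distal enhancers carry it in few. Fibroblast enhancers are known for motifs of AP-1, TEAD and RUNX factors. KLF4, one of the induced factors, is a zinc finger protein that binds GC-rich and CACCC-like sites and is active in both epithelial and pluripotent cells.

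Promoter sequences were looked up for the best-placed regions of each specific class, ranked by the mean within-list percentile of the deposited score, since most regions of both classes lay away from gene starts and these are the exceptions. The sequences are those of RefSeq (GRCm38.p6, the assembly called mm10), 250 bases before to 50 after a listed start, 5′ to 3′ on the gene's strand. Capitals mark a KLF motif, GGGCGTGG or GGGTGTGG on either strand. No AP-1 motif, TGACTCA or TGAGTCA (each the other's reverse complement), was in these 6 windows. In MEF-specific regions the first 3 were those of Il1r1, an interleukin receptor, at chr1:40224830-40225129 (+ strand), Speg, a kinase of striated and smooth muscle, at chr1:75399835-75400134 (+ strand), and Col5a3, a fibrillar collagen chain, at chr9:20815018-20815317 (- strand).
Il1r1: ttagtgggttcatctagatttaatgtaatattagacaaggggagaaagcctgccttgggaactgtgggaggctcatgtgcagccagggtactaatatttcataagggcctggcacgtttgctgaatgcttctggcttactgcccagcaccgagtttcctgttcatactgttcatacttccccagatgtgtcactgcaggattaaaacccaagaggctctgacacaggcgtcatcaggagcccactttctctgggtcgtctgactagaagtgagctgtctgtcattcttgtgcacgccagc
Speg: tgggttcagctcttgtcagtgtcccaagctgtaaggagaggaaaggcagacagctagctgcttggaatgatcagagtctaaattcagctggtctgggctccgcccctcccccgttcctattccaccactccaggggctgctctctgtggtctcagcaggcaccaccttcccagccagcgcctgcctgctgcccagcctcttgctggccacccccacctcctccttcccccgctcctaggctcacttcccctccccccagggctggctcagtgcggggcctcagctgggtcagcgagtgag
Col5a3: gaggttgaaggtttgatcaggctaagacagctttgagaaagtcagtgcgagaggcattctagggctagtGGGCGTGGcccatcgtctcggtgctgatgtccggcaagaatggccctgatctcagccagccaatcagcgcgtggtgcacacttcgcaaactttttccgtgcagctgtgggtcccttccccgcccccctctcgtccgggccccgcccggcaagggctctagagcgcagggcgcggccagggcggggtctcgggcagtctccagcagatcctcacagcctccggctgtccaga
In day 3-specific regions the first 3 were those of Cobl, an actin nucleator, at chr11:12412091-12412390 (- strand), Pipox, a peroxisomal oxidase, at chr11:77893823-77894122 (- strand), and L1td1, an RNA-binding protein of pluripotent cells, at chr4:98726504-98726803 (+ strand).
Cobl: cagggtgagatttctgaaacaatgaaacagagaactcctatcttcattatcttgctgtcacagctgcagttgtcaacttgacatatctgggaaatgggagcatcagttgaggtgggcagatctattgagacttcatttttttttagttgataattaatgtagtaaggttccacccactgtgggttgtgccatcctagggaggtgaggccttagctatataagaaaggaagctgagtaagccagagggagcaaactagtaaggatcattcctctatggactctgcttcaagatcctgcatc
Pipox: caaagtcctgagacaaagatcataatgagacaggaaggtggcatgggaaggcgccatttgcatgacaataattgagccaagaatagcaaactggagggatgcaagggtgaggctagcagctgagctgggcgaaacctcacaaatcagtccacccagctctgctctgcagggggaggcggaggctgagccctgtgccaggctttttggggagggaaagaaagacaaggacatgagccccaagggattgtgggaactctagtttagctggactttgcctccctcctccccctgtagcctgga
L1td1: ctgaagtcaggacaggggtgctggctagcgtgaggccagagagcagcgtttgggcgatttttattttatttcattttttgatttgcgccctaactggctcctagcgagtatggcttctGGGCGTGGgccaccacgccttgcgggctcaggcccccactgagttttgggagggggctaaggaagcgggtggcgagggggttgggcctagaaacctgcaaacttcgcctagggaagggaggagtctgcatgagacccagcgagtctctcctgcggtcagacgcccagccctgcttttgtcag
The L1td1 promoter held 1 KLF motif, and its region had a KLF4 peak in all 10 KLF4 lists. The Col5a3 promoter also held 1, and its MEF-specific region likewise had a KLF4 peak in all 10, while none of the 7 later H3K27ac lists had a peak there. The promoters of Il1r1, Speg, Cobl and Pipox held no such letters, and the Pipox region had a KLF4 peak in all 10 lists. The Cobl region had one in every list of days 3, 6 and 9 and in none of ESC with or without 2i. The Speg region had one in the DG-4040 list of day 6, the EA-2643 list of ESC and the EA-3702 list of ESC with 2i, and the Il1r1 region in no list. Over all 21044 listed promoters of protein-coding genes, 10.3% held a KLF motif and 4.69% an AP-1 motif. The share with a KLF motif was 13.1% of 1052 promoters in MEF-specific regions, 9.78% of 92 in day 3-specific regions and 13.3% of 9317 in common regions. The AP-1 shares were 6.75%, 5.43% and 2.98%, the last being the lowest.

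The lists differed in length before any region was compared. The 2 MEF lists held 88070 and 88347 peaks. The day 3 lists held 46723 peaks in the library of batch EA-3702 and 50836 and 41471 in the libraries of batch DG-3458, the batch of both MEF libraries. The groups did not overlap, and each MEF list was longer than every day 3 list. With 2 libraries against 3 the smallest two-sided p of an exact permutation test is 0.1, which this comparison reached (0.14 after Benjamini-Hochberg adjustment over 7 tests), so that no difference between the 2 groups could pass 0.05. MEF peaks covered 82.8 and 83.5 Mb and day 3 peaks 38.4, 30.5 and 23.8 Mb, again without overlap (exact permutation p = 0.1). Median peak width was 552 and 554 bp in MEF and 567, 417 and 411 bp at day 3, where the EA-3702 list stood above the MEF lists (exact permutation p = 0.4). With each list shortened to its 41471 best peaks, the width groups no longer overlapped (difference of -0.3923 on the log10 scale against -0.0802, exact permutation p = 0.1), and the difference in covered length was -34.48 Mb against -52.23 Mb. Peaks within 2.5 kb of the start of a protein-coding gene made up 20.2% and 20.1% of the MEF lists and 32.1%, 32.0% and 37.8% of the day 3 lists, every day 3 list above both MEF lists (exact permutation p = 0.1). The difference between group means was 13.84 percentage points, and 4.567 when each list was shortened to its 41471 best peaks. Read depth is not given in the sources used here, and its part in the list lengths was not tested. The bases shared by 2 lists as a share of the bases in either (the Jaccard index) was 0.709 for the 2 MEF lists, 0.474 to 0.518 among the day 3 lists and 0.185 to 0.251 between the groups, with no overlap of the within-group and between-group ranges (exact permutation p = 0.1, one-sided).

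**Figure D1:**
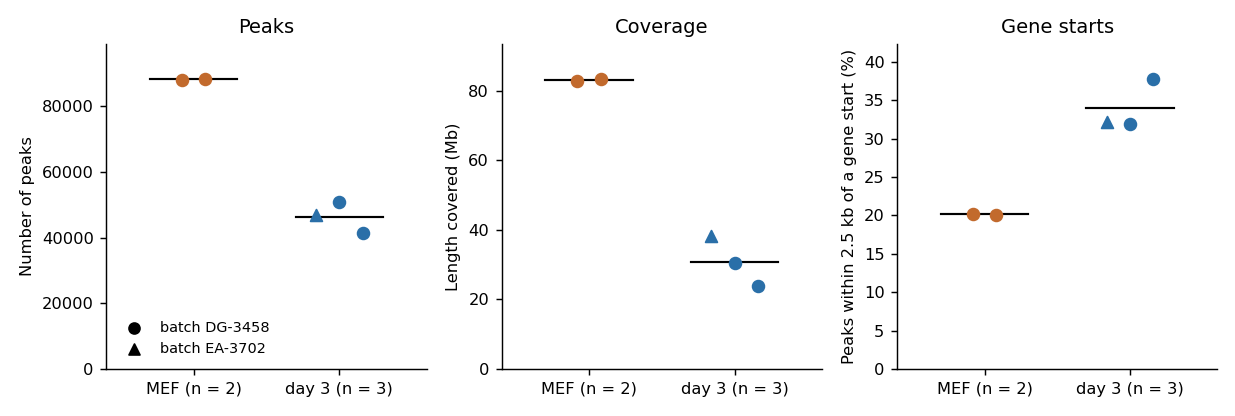
Number of peaks, length covered in Mb and percentage of peaks within 2.5 kb of a protein-coding gene start, for each of the 5 libraries (points; circles, batch DG-3458; triangles, batch EA-3702) with group means (lines). The 2 MEF lists lie together, above the 3 day 3 lists in the first 2 panels and below them in the last.

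The labels were set against marker genes, counting genes with a peak within 2.5 kb of a start. All 10 fibroblast markers had one in both MEF lists, and 8 or 9 of 10 did at day 3. Pdgfra, the receptor that marks mesenchyme, had one in both MEF lists and in no day 3 list, and Col3a1 in both MEF lists and 1 day 3 list. Of 6 pluripotency markers, 1 or 2 had a peak in each list. Dppa3 had one in both MEF lists, Pou5f1 in the 3 day 3 lists and Nanog in 1 day 3 list. Reads of the Pou5f1 copy in the cassette and of the gene itself cannot be told apart in the lists. Esrrb, Zfp42 and Tdgf1 had no peak in any of the 5. Other cell types gave 2 to 5 of 12 immune, 2 to 4 of 12 endothelial, 0 or 1 of 12 neural and 0 to 2 of 12 skeletal muscle markers, and 10 to 16 of 36 epithelial ones. Over all 21627 protein-coding genes the share was 60.2% in both MEF lists and 49.3% to 54.4% at day 3.

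MEF-specific and day 3-specific regions were narrower than common regions and less often close to gene starts. A merged region is the union of the peaks in it, so a region held by more lists is wider in part by construction. Median width was 723 bp for MEF-specific, 948 bp for day 3-specific and 2107 bp for common regions. Regions at least 2 kb wide made up 9.87%, 12.5% and 54.1% of these classes. MEF-specific regions summed to 36.9 Mb, day 3-specific regions to 5.37 Mb and common regions to 39.2 Mb, so the common class, with fewer regions than the MEF-specific one, covered slightly more of the genome. Of common regions, 60.2% lay within 2.5 kb of a protein-coding gene start, against 8.57% of MEF-specific and 7.96% of day 3-specific ones. A start lay inside 874 MEF-specific regions (2.38%), 91 day 3-specific regions (2.03%) and 8526 common regions (54.8%). A start inside the region was thus the rule among common regions and the exception in both specific classes.

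The specific classes differed in their distances to gene starts, given here over each whole class. Regions over 50 kb from any protein-coding gene start made up 43.2% of the MEF-specific and 34.7% of the day 3-specific class, against 36.4% of all merged regions. Regions 2.5 to 10 kb away made up 13.2% and 18.5%, against 13.7%. Median distance to a start was 38.3 kb for MEF-specific and 29.0 kb for day 3-specific regions, against 28.5 kb over all. Day 3-specific regions lay inside a protein-coding gene in 63.5% of cases and MEF-specific ones in 50.2%, against 59.9% over all. For the share over 50 kb and the median, the day 3-specific class thus lay nearer to all regions than the MEF-specific one. By chromosome, MEF-specific regions made up between 26.1% (chromosome 17) and 36.7% (chromosome X) of merged regions, and day 3-specific ones between 2.87% (chromosome X) and 4.79% (chromosome 11).

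**Figure D2:**
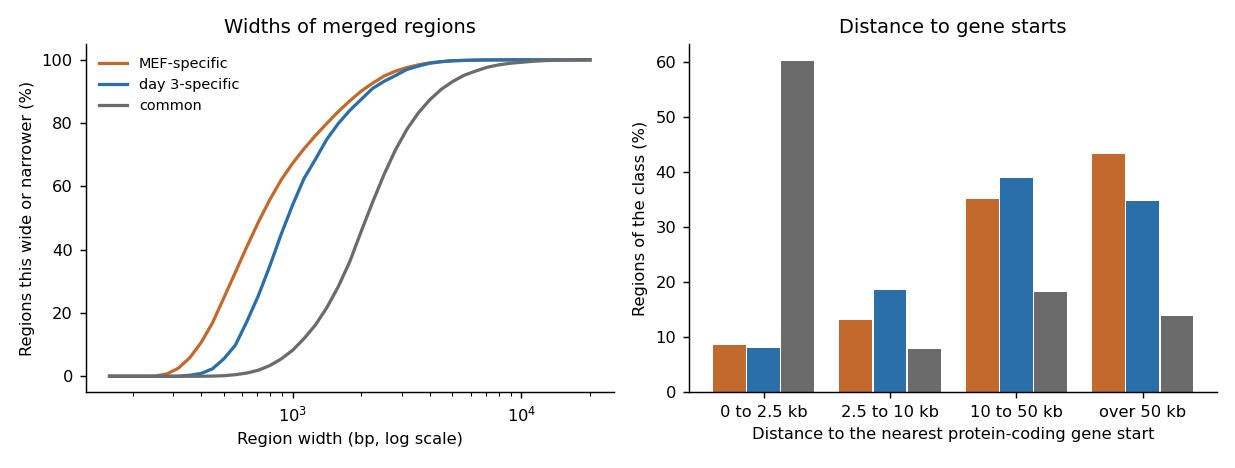
Left, percentage of regions at or below a given width (bp, log scale) for the 3 classes. Right, percentage of each class by distance to the nearest protein-coding gene start. The day 3-specific curve lies to the right of the MEF-specific one, with medians of 948 and 723 bp, and the common curve farther to the right, with a median of 2107 bp; 60.2% of common regions fall in the first distance bin.

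Distances from each specific region to the nearest peak of the other group were measured, with no background of other positions. The nearest MEF peak was a median of 6.85 kb from a day 3-specific region and within 1 kb of 628 of them (14.0%). It was over 10 kb away for 1769 (39.5%) and over 50 kb away for 8.05%. Seen from the MEF-specific regions, the nearest day 3 peak was a median of 13.5 kb away and over 50 kb away in 21.1%. The day 3 lists cover less of the genome than the MEF lists, so these distances are not alike in meaning.

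Within their own lists the MEF-specific regions ranked near the middle, the day 3-specific ones near or above it, and the common ones high. Common regions were wider and could hold more peaks of a list, and the part of this in their ranks was not tested. The best peak of a MEF-specific region stood at a median percentile of 49.5 and 49.4 from the top of the 2 MEF lists. That of a day 3-specific region stood at 36.9, 38.6 and 50.1 in the EA-3702 list and the 2 DG-3458 lists. Common regions stood at 11.2 and 11.1 in MEF and at 19.4, 19.6 and 25.04 at day 3. Of common regions, 45.8% and 46.0% held a peak from the top 10% of the MEF lists, against 2.18% and 2.14% of MEF-specific regions. These percentiles come from the authors' score and are comparable only within a list.

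A common region was not necessarily covered to the same extent in both groups. MEF peaks covered a median of 91.4% and 92.1% of the length of a common region, and day 3 peaks 67.2%, 52.9% and 46.0%. Both MEF lists covered more of the region than every day 3 list in 11159 of 15556 common regions (71.7%), and the reverse held in 1086 (6.98%). The MEF lists were also longer and covered more of the genome in all. The part of list length and read depth in this order was not tested. At Prrx1, a homeobox factor of limb and craniofacial mesenchyme, a common region of 8157 bp within the gene was nearly filled by MEF peaks and touched by narrow day 3 peaks, as the plot of 3 loci shows. The class sizes count whole regions and not differences of extent within a region.

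None of the 10 MEF-specific regions of best rank had a peak in any later H3K27ac list or any KLF4 list. First was a region of 4913 bp inside Synm, an intermediate filament protein, at chr7:67738309-67743221 (mm10), with deposited fold enrichments of 51.1 and 51.4 in the 2 MEF lists. Second was a region of 7329 bp at chr14:72881892-72889220, 18.4 kb from the predicted gene Gm4606, with folds of 52.7 and 50.7. A region of 4488 bp in Col27a1, a fibrillar collagen, had folds of 53.0 and 43.9. The next were in Adam12, a membrane metalloprotease (41.0 and 32.0), and in Pde4d, a cyclic AMP phosphodiesterase (41.6 and 40.6). Of the other 5, those in Spata4, Rasal2 (a RAS GTPase activator) and Srgap1 lay in genes, and those nearest to Tes (a focal adhesion protein) and Wdr75 did not. The nearest starts were 6.48 to 587 kb away over the 10 regions. Folds are the authors' and describe peaks within a list; the median fold of a whole MEF list was 4.89 and 4.85.

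The 10 day 3-specific regions of best rank differed from these in the later H3K27ac lists and the KLF4 lists. All had a KLF4 peak in both day 3 KLF4 lists and an H3K27ac peak in both day 9 lists. Only those nearest to Klf13, Kirrel and Dhrs4 and the one in Pipox had a peak in all 7 later H3K27ac lists, and the same 4 had a KLF4 peak in all 10 KLF4 lists. The first lay 16.3 kb from Klf13, a zinc finger factor of the KLF family, at chr7:63955190-63958890, with folds of 22.9, 18.1 and 18.5 in the EA-3702 list and the 2 DG-3458 lists. The second lay 198 kb from Egln3, an oxygen-sensing prolyl hydroxylase, at chr12:54401477-54406559, with folds of 21.2, 19.4 and 20.5, and had no peak in either ESC list. The widest of the 10, 8887 bp, lay 13.6 kb from Kirrel, a cell adhesion protein, with folds of 24.5, 16.6 and 20.04. The regions in Arpp21, Cobl and Pdcl2 and the one 12.6 kb from Golph3 had peaks in both day 9 lists and in neither ESC list. The one near Slc16a9, a monocarboxylate transporter, had a peak in 1 of the 2.

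The 5 common regions of best rank lay at Lats2, the Hippo pathway kinase (named Gm52140 by overlap), near Zfp169, at Lrp6, a WNT co-receptor, at Zc3h4 and in Epc1, with folds of 67.5 to 92.8 in MEF and 24.5 to 42.5 at day 3. The 5 widest spanned 19314 to 28921 bp. They lay in Vmp1, over Smad7 (the inhibitor of TGF-beta signalling), over Foxc1 beside Gmds, over the Hoxa7 to Hoxa10 stretch of the Hoxa cluster and in Ahnak.

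Genes with many specific regions were long. The most MEF-specific regions within a gene or 10 kb of it were 52 at Glis3, a zinc finger factor of 421 kb, and 52 at Pde4d, which spans 1302 kb. Next came Mecom with 47, Atxn1 and Lrmda with 42 each, Ltbp1, which tethers latent TGF-beta in the matrix, with 41, and Dlc1, Rad51b and Cacna2d3 with 37 each, and Babam2 with 36. The most day 3-specific regions were 13 at Sipa1l2 (152 kb) and at Pdzd2 (380 kb). Sipa1l2 had 1 MEF-specific region, whereas Pdzd2 had 9. Dclk2, Cobl and the guidance ligand Slit3 had 11 each, and Asap2, Plcl1, Itpr2 (a calcium channel of the endoplasmic reticulum), Tshz2 and Ptprm (a receptor phosphatase) 10 each. Cobl and Ptprm also had 18 and 21 MEF-specific regions, and Tshz2 had none. The share of genes with a day 3-specific region went from 3.55% of genes up to 10 kb long to 30.7% of genes over 100 kb, and with a MEF-specific region from 23.0% to 78.7%.

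Of all 21627 protein-coding genes, 9019 (41.7%) had a MEF-specific region within the gene or 10 kb of it, 2189 (10.1%) a day 3-specific and 12121 (56%) a common one. Both kinds of specific region lay at 1308 genes, which is 59.8% of the genes with a day 3-specific and 14.5% of those with a MEF-specific region. Their median length was 97.7 kb, against 17.3 kb over all genes. Gene lists were read against these percentages with no test. Among the 5071 genes over 30 and up to 100 kb long, 55.7% had a MEF-specific, 13.8% a day 3-specific and 67.4% a common region.

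Genes of the fibroblast programme had MEF-specific regions in most cases. Among transcription factors of mesenchyme, 32 of 35 had one, with a median of 2 per gene and a median gene length of 46.6 kb. Runx2, the bone and mesenchyme factor, had 19, Prrx1 had 14, Twist2 and Zeb2, which repress epithelial genes, had 9 and 8, and Foxp1 had 23. In 10 of the 35 (28.6%, background 10.1%, and 13.8% of genes over 30 and up to 100 kb) there was also a day 3-specific region. Among them were Meis1 and Meis2, homeobox factors with 4 each and with 3 and 1 MEF-specific regions. Among matrix genes, 32 of 37 had a MEF-specific region (median gene length 44.8 kb). The elastic fibre genes Fbn2 and Fbn1 had 15 and 13, the collagen genes Col8a1 and Col5a1 had 15 and 11, and the crosslinking enzyme gene Loxl2 had 9. Col3a1 had 5 MEF-specific and no common region. Fn1, Col1a2 and Thbs1 had a common region and no MEF-specific one. Day 3-specific regions lay at 7 of the 37 (18.9%), with 5 at Col4a1, a basement membrane collagen.

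Signalling and cytoskeletal genes combined specific with common regions. All 24 genes of the TGF-beta pathway had a common region and 17 (70.8%) a MEF-specific one, in genes of a median length of 69.0 kb. The MEF-specific share was 41.7% over all genes and 55.7% over those of more than 30 and up to 100 kb. MEF-specific regions numbered 41 at Ltbp1, 16 at the co-receptor gene Tgfbr3, 11 at Smad3 and 9 at the ligand gene Tgfb2. All 28 contractile and cytoskeletal genes had a common region and 21 a MEF-specific one, with 19 at Pdlim5 and 14 at Cald1. Day 3-specific regions were found at 3 of these 28, with 7 at Palld, an actin crosslinker, 3 at Tpm4 and 2 at Cnn3. All 21 AP-1 and TEAD genes had a common region, and 15 a MEF-specific one, with 11 at Tead1 and 8 at Wwtr1, which encodes the coactivator TAZ. Of the housekeeping genes, 20 of 20 had a common region and 5 a MEF-specific one, and of the genes of growth and the cell cycle 27 and 13 of 28.

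Epithelial and pluripotency genes had day 3-specific regions in shares near that of matrix genes and below that of the fibroblast factors, and MEF-specific ones at or below the background. They were shorter, with median lengths of 15.6 and 11.7 kb, against 44.8 kb for matrix genes and 46.6 kb for fibroblast factors. A day 3-specific region lay at 7.31% of all genes over 10 and up to 30 kb long. The share was 13.8% of those over 30 and up to 100 kb, so the shares of these lists are not alike in meaning. Among 36 epithelial genes, 7 had a day 3-specific region (19.4%, background 10.1%), and 15 of 36 had a MEF-specific one (41.7%, the same as the background). Ehf, an epithelial ETS factor, had 6 and no MEF-specific or common region. The others were Tjp1 with 4, Pkp3, Jup and Perp, genes of desmosomes, with 2 each, and Cdh1, the adherens junction cadherin, and Grhl2, a regulator of epithelial genes, with 1 each. MEF-specific regions also lay at Tjp1 (4), Cdh1 (3), Jup (2) and Perp (1), and none at Pkp3 or Grhl2. Epcam, Cldn4, Cldn7 and Ovol2 had no region of any class. The Cdh1 region of 966 bp lay 2.59 kb from an end of the gene, with folds of 3.76, 4.30 and 3.89 at day 3, and had a KLF4 peak in both day 3 lists. At Tjp1, which encodes a tight junction scaffold, the strongest of the 4 had folds of 12.3, 11.2 and 9.42, with peaks at day 9 and none in ESC.

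Among 37 pluripotency genes, 7 had a day 3-specific region (18.9%) and 12 a MEF-specific one (32.4%). L1td1 had 2, of which the one over its start, at chr4:98725568-98728112, had folds of 21.9, 12.04 and 11.4. Fgf4, the growth factor of the early embryo, had 2, one of them a 3350 bp region over its start. Fbxo15, a reporter gene of early reprogramming studies, had 3, Tet2, an enzyme that oxidises methylcytosine, 4, Trim71 3 and Alpl, the alkaline phosphatase of pluripotent cells, 1. MEF-specific regions also lay at Tet2 (2) and Trim71 (1). All of these day 3-specific regions except 2 of the 4 at Tet2 had peaks in both ESC lists. Pou5f1 had 1 day 3-specific, 2 MEF-specific and 1 common region. The day 3-specific one, over its start, was narrow, 646 bp at chr17:35505940-35506585, with folds of 6.33, 4.01 and 2.75, and had a peak in both day 9 and both ESC lists and in no day 6 list. The cassette carries a copy of Pou5f1, and reads of the copy and of the gene itself cannot be told apart in the lists. A day 3-specific region of 605 bp lay at the higher-numbered end of Col1a1, the locus of the cassette, with folds of 2.18, 4.99 and 3.25. Whether it holds reads of the cassette was not tested. Nanog, Klf2, Utf1 and Sall4 had a common region, and Esrrb, Zfp42, Lin28a, Dppa4 and Nr0b1 had no region of any class.

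**Figure D3:**
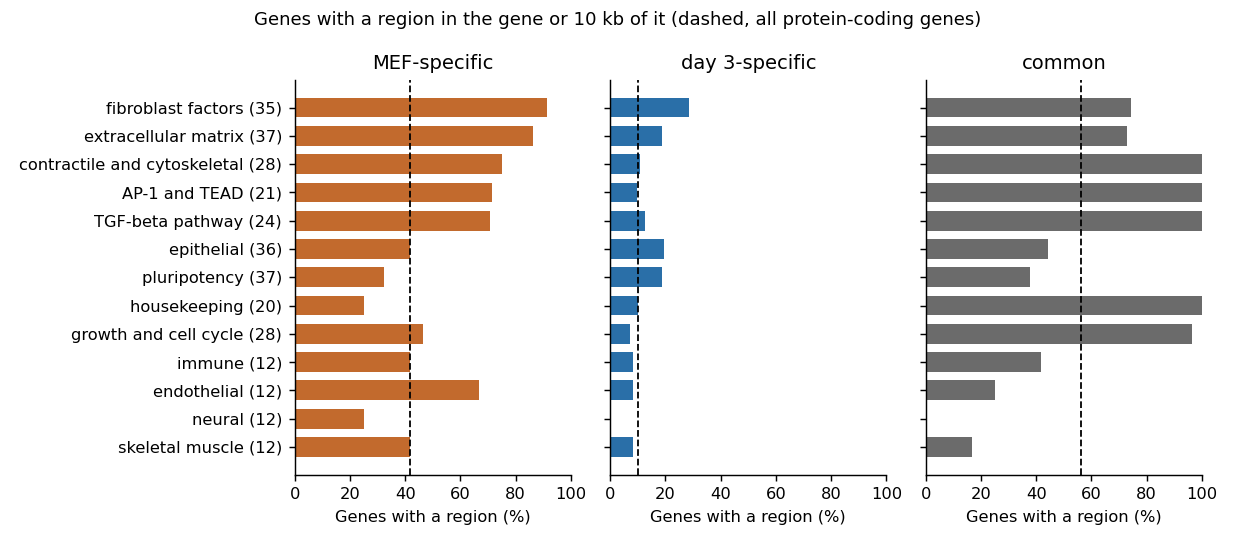
Percentage of the genes of each list (number of genes in brackets) with at least 1 region of a class in the gene or 10 kb of it; the dashed line is the percentage over all 21627 protein-coding genes (41.7%, 10.1% and 56%). Fibroblast factors and matrix genes have the longest MEF-specific bars, 91.4% and 86.5%, and their median lengths are 46.6 and 44.8 kb, against 17.3 kb for all genes.

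Lists of other cell types stayed near or below the background for day 3-specific regions, at 1 of 12 immune, endothelial and muscle genes and 0 of 12 neural genes. The immune gene was Laptm5, with a 1727 bp region over its start and KLF4 peaks in both day 3 lists. A MEF-specific region lay at 8 of 12 endothelial genes (66.7%, background 41.7%), 5 of 12 immune, 5 of 12 muscle and 3 of 12 neural genes. The endothelial genes had a median length of 30.8 kb, against 17.3 kb over all genes. The share was 39.1% of all genes over 10 and up to 30 kb and 55.7% of those over 30 and up to 100 kb. Erg held 11 of the regions at endothelial genes and Map2 25 of those at neural genes. Whether other cells in the MEF culture gave these was not tested.

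The Mir290 cluster, chosen after its values were seen, had 2 day 3-specific regions. It encodes the most abundant microRNAs of mouse embryonic stem cells, from chr7:3218626-3220841 (mm10). Neither MEF list had a peak in the cluster or 10 kb of it. A day 3-specific region of 4240 bp, chr7:3210594-3214833, began 8.03 kb before the cluster, with folds of 16.8, 11.3 and 11.7, and had a peak in all 7 later H3K27ac lists and all 10 KLF4 lists. A narrow day 3-specific region of 513 bp lay at the first hairpins, with folds of 2.77, 2.33 and 2.43, and had a peak in all 7 later H3K27ac lists and in no KLF4 list. The mature forms shown here, 3 of the cluster, share 1 seed, bases 2 to 8, shown in capitals in the RefSeq sequences.
miR-291a-3p: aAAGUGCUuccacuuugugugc
miR-294-3p: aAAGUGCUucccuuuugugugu
miR-295-3p: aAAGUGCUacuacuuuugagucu
miR-291b-3p, with the seed AAGUGCA, and miR-290a-3p, with AAGUGCC, differ from them in the last base of the seed.

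**Figure D4:**
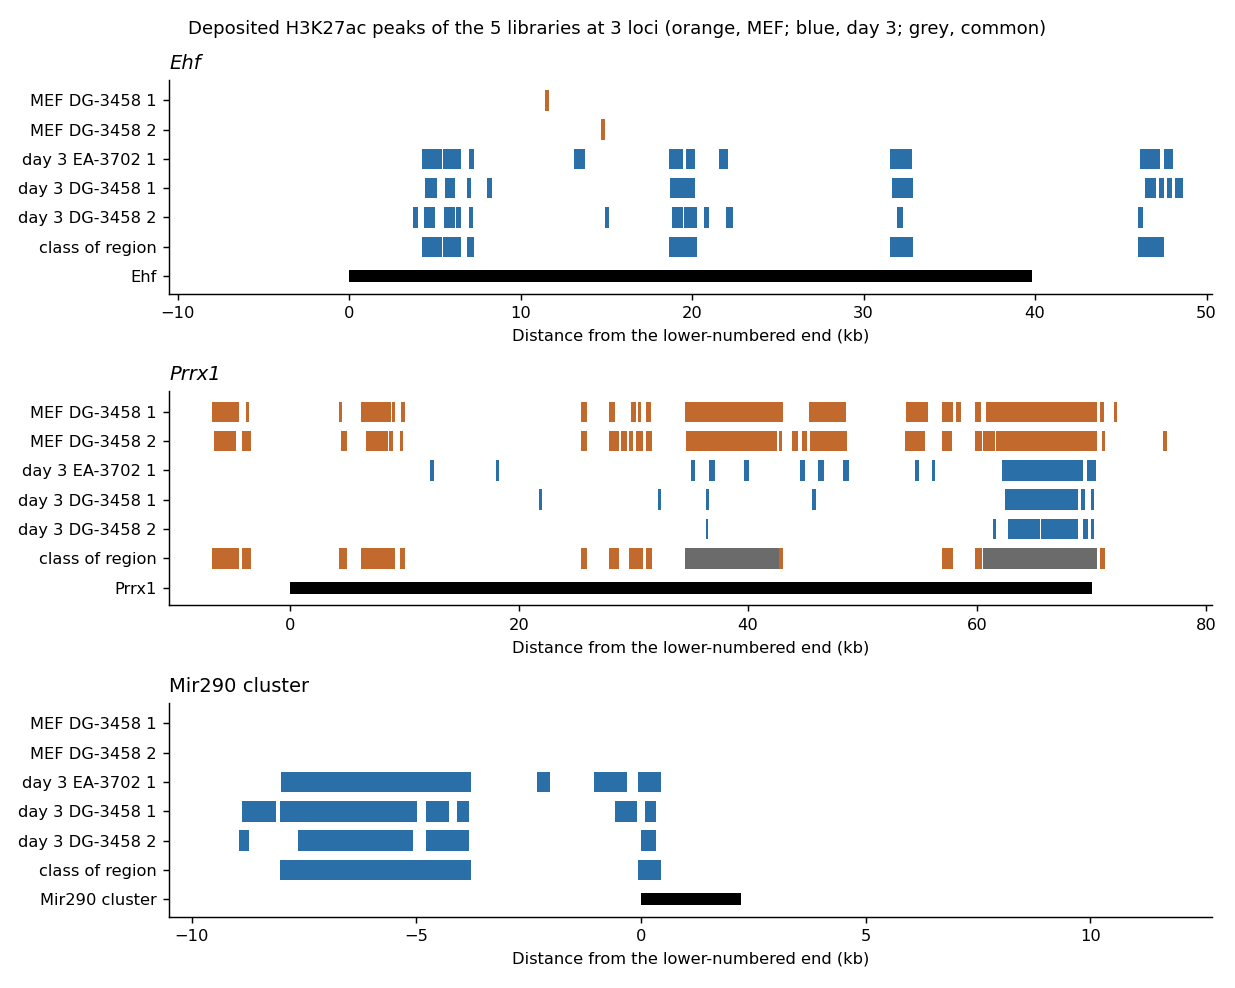
Deposited peaks of the 5 libraries at Ehf, Prrx1 and the Mir290 cluster, with the class of the merged regions and the extent of the gene or cluster (black), by distance in kb from its lower-numbered end. The 6 day 3-specific regions of Ehf, the 14 MEF-specific and 2 common regions of Prrx1 and the 2 day 3-specific regions of the Mir290 cluster are shown; loci were chosen after their values were seen.

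Peaks at the regions of each class were also counted in later H3K27ac libraries, which the rule did not use. MEF-specific regions had an H3K27ac peak in 0.603%, 0.448% and 0.856% of cases in the 3 day 6 lists, 5.80% and 6.11% at day 9 and 9.09% and 8.78% in ESC. Day 3-specific regions had one in 27.2% and 22.5% in the DG-3458 lists of day 6, 49.0% in the EA-3702 list of day 6, 69.3% and 70.8% at day 9 and 36.3% and 36.5% in ESC. Common regions had one in 61.0% to 71.8% at day 6, 82.8% and 84.0% at day 9 and 75.4% and 75.3% in ESC. Over 12 alternative settings the day 3-specific share was 16.4% to 80.3% at day 6, the highest for the 1000 best regions of the class, 60.9% to 88.3% at day 9 and 32.4% to 47.6% in ESC. The MEF-specific share rose with the top 50% of each list, to at most 3.36% at day 6, 12.99% at day 9 and 15.3% in ESC. With the rules as given, in every one of the 7 lists the day 3-specific share stood between the other classes. The lists held 17493 to 22462 peaks at day 6, 43974 and 45506 at day 9 and 81971 and 81231 in ESC. The part of list length in these shares was not tested.

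The day 3-specific minus the MEF-specific share was 26.6, 22.04 and 48.1 percentage points at day 6, 63.5 and 64.7 at day 9 and 27.2 and 27.7 in ESC. An exact permutation test over the 210 labelings of these 7 libraries did not separate the stages (between-group F = 8.525, p = 0.124, adjusted p = 0.144). The day 6 library of batch EA-3702 lay above the others of its stage, and without it F was 260 (exact permutation p = 0.0667, the smallest that the 6 remaining libraries allow). Leaving out 1 day 9 library lowered F to 3.919 or 3.646, and leaving out 1 ESC library to 5.663 or 5.72. In the EA-3702 libraries alone, day 6 had 48.1 and day 9 had 63.5 and 64.7, and in the DG-3458 libraries alone, day 6 had 26.6 and 22.04 and ESC had 27.2 and 27.7. No batch held both day 9 and ESC, so batch and stage cannot be told apart between these.

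Region by region, 31659 MEF-specific regions (86.0%) had no H3K27ac peak in any of the 7 later lists. Of the day 3-specific regions, 909 (20.3%) had none, 1294 (28.9%) had a peak in both day 9 and both ESC lists, 1408 (31.4%) in both day 9 lists and no ESC list, and 110 (2.45%) in both ESC lists and no day 9 list. Those with a peak in both day 9 and both ESC lists lay within 2.5 kb of a gene start in 12.4% of cases, and those in both day 9 lists and no ESC list in 6.04%. Only 43 MEF-specific regions (0.117%) had a peak in all 7, against 477 day 3-specific (10.6%) and 8334 common regions (53.6%). Among MEF-specific regions 1530 (4.16%) had a peak in both ESC lists and in no day 9 list, a pattern seen in 2.096% of common regions.

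Counted over whole classes, day 3 KLF4 peaks lay at day 3-specific regions about as often as at common ones. They lay hardly at all at MEF-specific ones. In the day 3 KLF4 lists of batches EA-3702 and DG-4040, 68.8% and 50.5% of day 3-specific regions had a peak, 68.5% and 48.1% of common regions and 4.38% and 2.36% of MEF-specific regions. At day 6 the day 3-specific share was 40.4% and 46.0%, at day 9 40.5% and 41.5%, in ESC 17.0% and 24.9% and in ESC with 2i 10.7% and 14.5%. The MEF-specific share was 2.04% to 4.38% over the 10 lists, and the common share between 36.6% and 68.5%. The KLF4 lists held 21129 to 34640 peaks. These shares moved with the regions counted: with classes drawn from batch DG-3458 alone the day 3-specific shares at day 3 were 54.1% and 35.4%, and the difference between classes fell to 8.38 and 12.95 points in ESC and 3.84 and 6.08 in ESC with 2i. With the top 50% of each list the MEF-specific share reached 9.35%, and with the 1000 best regions of each class the day 3-specific share reached 94.6%.

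The day 3-specific minus the MEF-specific share of regions with a KLF4 peak was 64.4 and 48.1 percentage points at day 3, 37.7 and 43.8 at day 6, 38.1 and 38.9 at day 9, 14.9 and 21.3 in ESC and 7.44 and 11.0 in ESC with 2i. It was above 0 in 10 of 10 lists, and both day 3 lists stood above all others. The stages differed (F = 19.9, exact permutation p = 0.003175 over 113400 labelings, adjusted p = 0.0222). With labels permuted within batches, the exact permutation p over 120 labelings was 0.05 (0.14 after the same adjustment over 7 tests), so the call was lost. Without the DG-4040 library of day 3 the F was 59.5 and without the EA-3702 one 40.55, and without the EA-3702 library of ESC with 2i it was 12.45, the lowest value over all alternatives. Over the 10 fits that left out 1 library the exact permutation p was 0.003175 to 0.0127 and the adjusted p 0.02222 to 0.08889. The adjusted p was above 0.05 without either day 6 library, without either day 9 library and without the EA-3702 library of ESC with 2i. Each comparison of stages is also one of lists of unequal length. Day 3 against day 6 or day 9 is also one of unsorted against sorted cells. The part of list length and of sorting was not tested. The ESC libraries were in batches EA-2697 and EA-2643, which held no other KLF4 stage, so batch and stage cannot be told apart there.

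**Figure D5:**
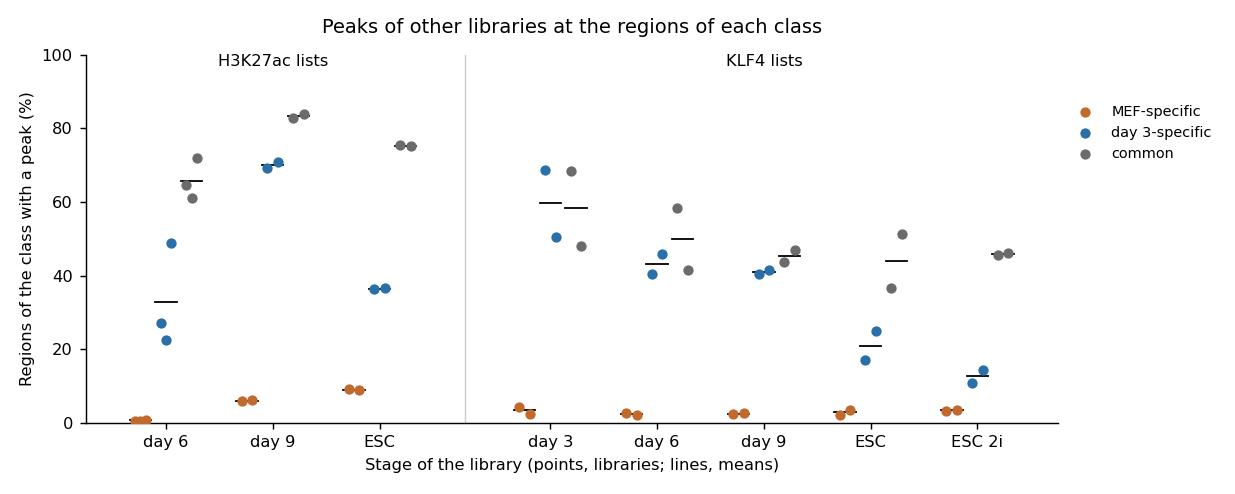
Percentage of the regions of each class with a peak in the 7 later H3K27ac lists (left) and the 10 KLF4 lists (right); points are libraries and lines are means. Day 3-specific regions have a KLF4 peak in 68.8% and 50.5% at day 3 and in 10.7% and 14.5% in ESC with 2i, and MEF-specific regions have a KLF4 peak in 2.04% to 4.38% over the 10 KLF4 lists and a later H3K27ac peak in 0.448% to 9.09% over the 7 H3K27ac lists.

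The gap between the specific classes was also present within bands of region width, and was smallest up to 500 bp. There the EA-3702 day 3 KLF4 list had a peak in 35.0% of 246 day 3-specific and 3.93% of 9064 MEF-specific regions. The DG-4040 list had one in 19.5% and 1.85%. Among regions over 500 and up to 1000 bp wide, the EA-3702 day 3 KLF4 list had a peak in 59.8% of 2178 day 3-specific and 4.14% of 15690 MEF-specific regions, and in 50.6% of 1248 common ones. Above 2000 bp the shares were 93.0% of 558 and 5.26% of 3629, and in common regions 75.7% of 8403. In the DG-4040 list they were 82.6%, 3.58% and 56.8%. In both lists the day 3-specific share was above the common share in every band, though the narrowest band held only 29 common regions.

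Day 3-specific regions with a KLF4 peak at day 3 more often had an H3K27ac peak in the later lists. Both day 3 KLF4 lists had a peak in 2171 of the 4483 (48.4%), 1 of them in 1005 (22.4%) and neither in 1307 (29.2%). The first had a median width of 1157 bp, the second 894 bp and the third 774 bp. The mean share with an H3K27ac peak over the 2 day 9 lists was 88.4%, 64.8% and 43.7% in this order, and over the 2 ESC lists 44.8%, 32.3% and 25.6%. Among MEF-specific regions only 589 (1.601%) had a peak in both day 3 KLF4 lists, and 37.5% of these lay within 2.5 kb of a gene start. Their mean share with an H3K27ac peak was 43.4% at day 9 and 40.9% in ESC, against 4.53% and 7.64% of the 34902 with no day 3 KLF4 peak. Of those 34902, 7.34% lay within 2.5 kb of a gene start. Width differed between these subsets too. The parts of width, distance to gene starts and peak strength were not tested.

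Regions just outside the rules are unions of fewer peaks than those inside, which by itself makes them narrower. The 4206 regions with a peak in 2 of the 3 day 3 lists and in no MEF list had a median width of 537 bp, against 948 bp inside the rule, and 7.01% lay within 2.5 kb of a gene start. The 28789 with a peak in 1 of the 2 MEF lists and no day 3 list had a median width of 292 bp, against 723 bp.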

How the data were processed

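Chromatin was crosslinked and sonicated, and libraries were sequenced single-end, as the labels' protocols state. The submitters' processing notes name cutadapt 1.8.1, Bowtie2 2.2.5, deepTools 2.3.6, MACS2 2.1.1 and the build mm10, with no settings. Each library came with its own deposited list, so peaks were called per sample. For each peak the authors deposited a score, a fold enrichment (ratio), and the −log10 p-value and −log10 q-value. The lowest −log10 p was 2.00 to 2.04 in the 5 lists, and 64.1% to 89.7% of peaks passed a q-value of 0.01. Lists depend on read depth, which is not given in the sources used here, so signal below the calling limit is not seen, and the precision rests on the spread between libraries. The 13 input libraries were not analysed here.

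From these lists, peaks were merged where they shared at least 1 bp, with Python 3.11.15, numpy 2.4.6 and pandas 2.3.3; replicate lists had at most 10 intervals in common to the base. Genes and promoters came from RefSeq tables of GRCm38.p6: a gene start was a start listed in the promoter table, or either end for the 4354 of 21627 protein-coding genes not listed there. Exact permutation tests used 1 value per library (log10 for peak number and width), two-sided except for the Jaccard index and the between-group F, with Benjamini-Hochberg adjustment over 7 tests and a threshold of 0.05; in each alternative that test's p replaced its own among the 7. Nothing in the labels says that libraries came from separate cultures or animals, so p-values measure the spread between these libraries. Named regions were the 10 of best mean rank of each specific class, the 5 best and 5 widest common ones, the 10 genes with most regions (ties broken by shorter length) and the genes of 13 lists. The members and lists were chosen with earlier results of these data known. Alternatives changed list length, q-value, merging gap, batch, gene starts and libraries. The code was tested on simulated lists.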

Additional observations from a re-analysis of the deposited data

Results flagged for a closer look

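The day 3-specific minus the MEF-specific share of regions with a KLF4 peak differed between the 5 KLF4 stages by a test of that difference (between-group F = 19.88, exact permutation p = 0.003175, adjusted p = 0.0222). With labels permuted within batches the exact permutation p was 0.05, adjusted 0.14. Its mean over 2 libraries was 56.3 percentage points (SD 11.5) at day 3. Day 6 gave 40.75 (SD 4.25) and day 9 gave 38.5 (SD 0.528). ESC gave 18.1 (SD 4.52) without and 9.24 (SD 2.55) with 2i. No group held 4 or more libraries, so single libraries were not tested for standing apart.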

How the results depend on the processing

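Class sizes moved with the lists. With each list shortened to its 41471 best peaks, MEF-specific regions numbered 14398 and day 3-specific ones 5403, so that the ratio between them shrank and its direction did not turn. A q-value limit of 0.01 left 2826 day 3-specific regions, the top 50% of each list 19707 MEF-specific and 2238 day 3-specific ones, and merging over gaps of up to 1 kb 24504 MEF-specific ones. When any library of one group and none of the other sufficed, the counts were 65584 MEF-specific, 27068 day 3-specific and 27638 common. Leaving out 1 library gave 37519 to 58713 MEF-specific, 4847 to 6867 day 3-specific and 16071 to 17597 common regions. The highest MEF-specific counts, 58713 and 58407, came without one or the other MEF library, and the highest day 3-specific count without replicate 2 of day 3 in batch DG-3458; fewer lists had to hold the peak in each case. The 5 differences between the groups kept their direction under every alternative that gave a value, including batch DG-3458 alone, except peak number in lists of equal length, which is 0 by construction; none could pass 0.05 in a design this small. The KLF4 stages stayed at or below an adjusted p of 0.05 under 13 of 19 alternatives, with F from 13.19 to 59.46 in these 13. The other 6 were labels within batches (F = 19.88, exact permutation, adjusted p = 0.14) and 5 of the 10 fits without 1 library; F was 12.45 to 59.46 over those 10 fits. For the later H3K27ac stages several alternatives could not reach 0.05, so their p-values say nothing of stability; F was 3.646 to 260.4 when 1 library was left out. The difference in gene-start share was 13.84 percentage points, and 11.65 with listed starts alone, an alternative chosen after seeing the data, like the use of either gene end and of the 1000 best regions per class. The replicate block could be set only within batch DG-3458, over numbers 1 and 2, where the smallest p is 0.5. Over its MEF and day 3 libraries the difference in gene-start share was then 14.8 percentage points (p = 0.5, exact permutation). Over its day 6 and ESC libraries, 2 stages in place of 3, the later H3K27ac F was 1.91 against 8.525 (p = 0.5, exact permutation); peak names in these day 6 files carry the numbers 1 and 2 exchanged against the titles, which were followed. Median width differed by -0.3923 (log10) in lists of equal length and by -0.002953 under the q-value limit, against -0.0802. Same-numbered libraries did not deviate together at the common regions (r = 0.000668 over 15556 regions, which are not independent). A correlation over these regions alone cannot show whether such libraries shared more than a number. Read depth, which would set how weak a peak can be seen, limits all absences.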
